A study of Mus musculus with 27 samples.

Results

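Liver mRNA of *Tuba8*, *Snhg11*, *Uap1l1*, *Gpat3* and *Idh2* was lower on HF/HS, a diet high in fat and sucrose, than on chow in control mice and in HGFAC-KO mice, and the genotype did not move any of them past the threshold on either diet. These 5 genes, of 23191 gene symbols in the count table, are not cytochrome P450 genes, and they were chosen by their consistent falls on HF/HS in these same mice. Their diet difference is therefore given as a description with no test. Tests are given for the genotype within each diet and for the dependence of the genotype effect on the diet. These tests use the same mice and group values as the diet contrast that chose the genes, so they are not independent of that choice.

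The data are RNA-Seq counts per gene from the liver of 27 male C57BL/6J mice after 4 weeks on the diet. There were 7 control and 6 HGFAC-KO mice on chow, and 7 control and 7 HGFAC-KO mice on HF/HS. HGFAC-KO mice carried a whole-body deletion in *Hgfac* that removes exon 2 and part of exon 1, made with CRISPR/Cas9, and controls were their littermates. The product of *Hgfac*, HGF activator, cleaves the inactive precursor of the growth factor HGF. The diets were different products, a chow and a purified diet rich in fat and sucrose, so fat, sucrose and the other ingredients cannot be told apart. The authors give 8 weeks as the age at the start of HF/HS for the HGFAC-KO mice and littermates of their longer diet study. Their text states no age for the mice sequenced here. Levels are given in CPM, the counts of a gene relative to the library's counts on named genes that passed a filter on low counts. They are scaled by the trimmed mean of M values (TMM) method.

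The 5 genes belong to separate parts of the cell. *Tuba8* encodes an alpha-tubulin, one of the subunits of which microtubules are built. *Snhg11* is a host gene whose introns hold small nucleolar RNAs and whose spliced transcript is a long noncoding RNA in RefSeq. *Uap1l1* is the paralog of *Uap1*, whose enzyme makes UDP-N-acetylglucosamine at the end of the hexosamine pathway. *Gpat3* encodes an acyltransferase of the endoplasmic reticulum that adds a fatty acid to glycerol-3-phosphate, the first step of triglyceride and phospholipid synthesis. *Idh2* encodes the mitochondrial isocitrate dehydrogenase that makes NADPH.

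The genes lie apart from each other in the genome (GRCm38, GENCODE annotation). *Tuba8* (ENSMUSG00000030137.8) is on the plus strand at chr6:121210696-121226854 with 5 exons. *Snhg11* (ENSMUSG00000044349.15) is on the plus strand at chr2:158375638-158386145 and holds the annotated small nucleolar RNA genes Gm25187 and Gm25129. *Uap1l1* (ENSMUSG00000026956.15) is on the minus strand at chr2:25359889-25365682 with 9 exons. *Gpat3* (ENSMUSG00000029314.14) is on the plus strand at chr5:100845713-100899102, and *Idh2* (ENSMUSG00000030541.16) is on the minus strand at chr7:80094846-80115392.

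Of the 5 genes, 4 had a promoter window in the RefSeq table for GRCm38.p6, which runs from 250 bases before to 50 bases after the start site. *Uap1l1* had none there. The exon-free stretches just upstream of *Snhg11*, *Tuba8* and *Idh2* are shown because these genes were lower together on HF/HS, while the window of *Gpat3* is covered by annotated exons. They are written 5′ to 3′ on the strand of the gene, and capitals mark a match to a motif on either strand. The motifs searched were the core of an E-box (CACGTG), the half-site of nuclear receptors (AGGTCA), the GC box (GGGCGG), the TATA box (TATAAA) and the CCAAT box, none of which overlap in the stretches shown.
*Snhg11* (chr2:158375463-158375637, plus strand): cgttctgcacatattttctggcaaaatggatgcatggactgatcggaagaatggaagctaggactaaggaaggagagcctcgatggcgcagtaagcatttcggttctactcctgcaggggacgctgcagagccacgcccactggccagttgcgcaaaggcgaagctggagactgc
*Tuba8* (chr6:121210484-121210695, plus strand): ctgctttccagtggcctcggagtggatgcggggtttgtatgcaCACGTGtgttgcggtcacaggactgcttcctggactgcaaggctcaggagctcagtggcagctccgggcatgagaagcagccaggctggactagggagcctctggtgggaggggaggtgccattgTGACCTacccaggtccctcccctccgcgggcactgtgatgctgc
*Idh2* (chr7:80115393-80115600, minus strand): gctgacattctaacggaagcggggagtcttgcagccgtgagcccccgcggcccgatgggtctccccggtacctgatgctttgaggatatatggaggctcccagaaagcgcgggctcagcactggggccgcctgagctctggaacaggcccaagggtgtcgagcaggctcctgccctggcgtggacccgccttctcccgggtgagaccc
Over the whole windows, *Tuba8* held the E-box core at position -207 from the start site and the half-site, on the opposite strand, at -82. *Idh2* held a GC box at -38 and, on the opposite strand, at -18, both outside the stretch shown, and a CCAAT box at -44 that is cut by its end and left in lower case there. *Gpat3* held GC boxes at -81, -76 and -69, the first of which overlaps the next by its last base, and *Snhg11* held none of the 5 motifs. Of 32851 promoter windows of the same length, 7.15% held the E-box core, 16.3% the half-site, 35.7% a GC box, 13.6% a TATA box and 37.4% a CCAAT box. No motif searched was shared by all 4 windows, and a match is a description of these letters only.

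Total counts per mouse ran from 36056177 to 57298657, with a median of 47239271. As a check of the labels, the mean level of *Hgfac* on chow was 201 CPM in the control group and 75.2 CPM in the HGFAC-KO group, and on HF/HS it was 271 against 91.8 CPM. Every HGFAC-KO mouse was below every control of its diet. The 7 hepatocyte markers summed to between 68370 and 105007 CPM in every mouse. In bulk liver, fewer cells of a type and less RNA per cell cannot be told apart.

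*Tuba8* was lower on HF/HS in both genotypes. In controls it ran from 11.4 to 17.9 CPM (median 13.2) on chow and from 3.48 to 4.56 CPM (median 3.90) on HF/HS. In HGFAC-KO mice it ran from 10.7 to 24.6 CPM (median 13.9) on chow and from 2.63 to 10 CPM (median 5.04) on HF/HS. The diet groups did not overlap in either genotype, but in HGFAC-KO mice the highest mouse on HF/HS (KO HF/HS replicate 2) came close to the lowest on chow. The mean on HF/HS was 28.9% of the chow mean in controls and 38.3% in HGFAC-KO mice, which are log2 fold changes of -1.79 (standard error 0.11) and -1.39 (standard error 0.30).

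*Snhg11* had the largest diet difference of the 5 genes on the log2 scale in both genotypes. In controls it ran from 17.1 to 30.3 CPM (median 20.3) on chow and from 2.26 to 5.14 CPM (median 3.76) on HF/HS. In HGFAC-KO mice it ran from 8.93 to 22.3 CPM (median 14.2) on chow and from 2.90 to 5.65 CPM (median 3.70) on HF/HS. The lowest mouse on chow lay 3.34-fold above the highest mouse on HF/HS in controls, and 1.58-fold above it in HGFAC-KO mice. The HF/HS mean was 16.8% of the chow mean in controls and 27.02% in HGFAC-KO mice, which are log2 fold changes of -2.58 (standard error 0.17) and -1.89 (standard error 0.22).

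*Uap1l1* was the member whose diet groups overlapped. In controls it ran from 7.88 to 11.3 CPM (median 9.65) on chow and from 3.60 to 4.93 CPM (median 4.18) on HF/HS, with no overlap. In HGFAC-KO mice it ran from 6.22 to 14.0 CPM (median 9.70) on chow and from 4.31 to 7.84 CPM (median 4.72) on HF/HS. There, KO HF/HS replicates 2 (7.84 CPM) and 6 (6.79 CPM) were above KO chow replicate 2 (6.22 CPM), and the other 5 mice on HF/HS were below all mice on chow. The HF/HS mean was 41.7% of the chow mean in controls and 55.9% in HGFAC-KO mice, with log2 fold changes of -1.26 (standard error 0.09) and -0.84 (standard error 0.19).

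*Gpat3* was lower on HF/HS with no overlap in either genotype. In controls it ran from 8.06 to 13.3 CPM (median 10.1) on chow and from 3.57 to 4.79 CPM (median 4.06) on HF/HS. In HGFAC-KO mice it ran from 5.78 to 9.62 CPM (median 8.05) on chow and from 2.84 to 4.82 CPM (median 3.89) on HF/HS. The genotypes overlapped on both diets, with 3 of 6 HGFAC-KO mice below every control on chow, and 2 of 7 below and 1 above every control on HF/HS. The HF/HS mean was 39.9% of the chow mean in controls and 50.1% in HGFAC-KO mice, with log2 fold changes of -1.32 (standard error 0.10) and -0.996 (standard error 0.13).

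*Idh2*, the most abundant of the 5 genes, had the smallest diet difference on the log2 scale. In controls it ran from 109 to 152 CPM (median 119.5) on chow and from 62.0 to 104 CPM (median 78.9) on HF/HS. In HGFAC-KO mice it ran from 114 to 139 CPM (median 123) on chow and from 71.6 to 85.0 CPM (median 81.0) on HF/HS. Control HF/HS replicate 3 was the mouse at 104 CPM, only 1.05-fold below the lowest control on chow, and the gap in HGFAC-KO mice was 1.34-fold. The HF/HS mean was 65.5% of the chow mean in controls and 63.0% in HGFAC-KO mice, with log2 fold changes of -0.61 (standard error 0.10) and -0.67 (standard error 0.06).

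**Figure D1:**
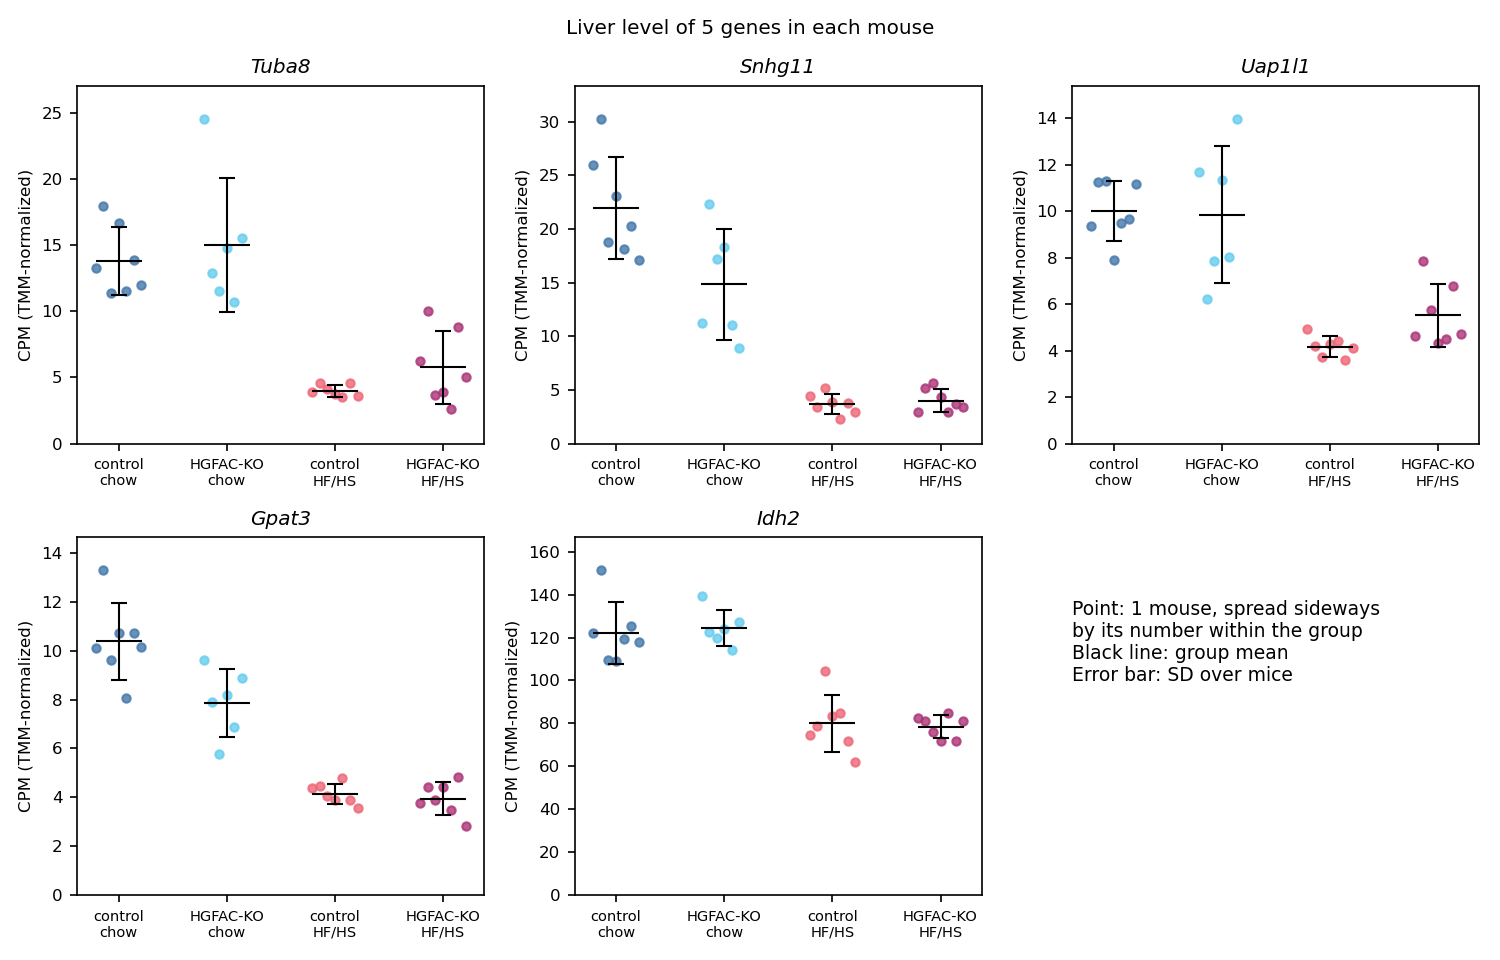
Level of each of the 5 genes in every mouse (CPM on the y axis, linear from 0) by genotype and diet, with 1 point per mouse, the group mean as a line and the SD as an error bar. The HF/HS points lie below the chow points of the same genotype for every gene except *Uap1l1* in HGFAC-KO mice, where 2 mice on HF/HS (7.84 and 6.79 CPM) lie above the lowest mouse on chow (6.22 CPM).

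Every HF/HS mouse was below every chow mouse for 5 of the 5 genes in controls, where 1.95% of 13525 genes tested had this pattern, and for 4 of the 5 in HGFAC-KO mice, where 1.31% of 13613 did. Since this contrast chose the genes, nothing is read from these counts. Counted from the lowest log2 fold change of all genes tested, *Snhg11* was at rank 12 in controls and 21 in HGFAC-KO mice, and *Tuba8* at 27 and 43. *Gpat3* was at rank 44 in controls and 90 in HGFAC-KO mice, *Uap1l1* at 50 and 123, and *Idh2* at 350 and 200. Of the 5 genes, *Idh2* was the one closer to the lowest value in HGFAC-KO mice than in controls.

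Expressed per length of merged exons (CPM divided by the length in kilobases, here called RPKM), *Idh2* was by far the highest of the 5 genes, at 47.2 ± 5.53 RPKM (SD, n = 7) in controls on chow. *Tuba8* followed at 6.09 ± 1.14 RPKM. *Gpat3* (2.97 ± 0.450 RPKM), *Snhg11* (2.58 ± 0.562 RPKM) and *Uap1l1* (2.46 ± 0.315 RPKM) did not differ beyond their spread. On HF/HS the controls were at 30.9 RPKM for *Idh2*, 1.76 for *Tuba8*, 1.18 for *Gpat3*, 1.03 for *Uap1l1* and 0.433 for *Snhg11*, so *Snhg11* moved to the end of the order. With the length of the longest transcript in place of merged exons, *Snhg11* was at 3.74 RPKM and *Gpat3* at 3.40 RPKM in controls on chow, which reverses the order of these neighbours.

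The share of a gene's exonic 50-base words that also occur in another annotated gene was 0% for *Uap1l1* and for *Idh2* and 2.40% for *Snhg11*. It was 14.7% for *Tuba8*, where 321 of 325 shared words lie in the antisense gene Gm15856 and only 4 in the tubulins *Tuba3a* and *Tuba3b*. It was 29.0% for *Gpat3*, where 907 of 1027 shared words lie in the antisense gene 4930458D05Rik. The libraries were stranded, and the strand setting of the counting is not given in the sources used here, so reads from *Tuba8* and *Gpat3* and from their antisense partners may be mixed. Neither Gm15856 nor 4930458D05Rik had a named row of counts, so such mixing could not be checked.

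The genotype comparison asks whether loss of HGFAC changed these genes within a diet. On chow, 0 of the 5 genes passed the quasi-likelihood test of edgeR, with p-values adjusted by the method of Benjamini and Hochberg, against 0.00737% of 13571 genes tested, which is 1 gene, *Hgfac*. For 0 of 5 did the genotypes separate without overlap, against 0.125% of all genes. At an unadjusted p under 0.05 there were 2 of the 5 genes, *Gpat3* and *Snhg11*, beside 812 of all genes, and under DESeq2 13 of all genes passed. DESeq2's own filter left 1993 of 13571 genes to adjust over on chow and gave 4 of the 5 no adjusted p, so under it only *Idh2* could have passed, and did not.

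The chow mean of *Gpat3* was 10.4 ± 1.57 CPM over the 7 controls and 7.87 ± 1.38 CPM (both SD) over the 6 HGFAC-KO mice, with 3 of the 6 HGFAC-KO mice below every control. Its log2 fold change was -0.39 (95% interval -0.65 to -0.13, adjusted p = 0.801 from edgeR over all genes). As a single gene the two-sided exact permutation test over 1716 divisions of the mice gave p = 0.00874, where 0.000583 is the smallest it can give. That of *Snhg11* was 21.96 ± 4.79 CPM over controls and 14.8 ± 5.21 CPM over HGFAC-KO mice, again with 3 of 6 HGFAC-KO mice below every control. Its log2 fold change was -0.56 (95% interval -1.002 to -0.12, adjusted p = 0.801), with an exact permutation p of 0.0256. Neither gene passed over all genes, and with single mice left out the log2 fold change stayed between -0.46 and -0.32 for *Gpat3* and between -0.71 and -0.45 for *Snhg11*.

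The other 3 genes were near 0 on chow. The log2 fold change was 0.13 for *Tuba8* (95% interval -0.25 to 0.51, adjusted p = 0.893 from edgeR), -0.02 for *Uap1l1* (-0.36 to 0.33, adjusted p = 0.990) and 0.03 for *Idh2* (-0.12 to 0.19, adjusted p = 0.934). The intervals of *Tuba8* and *Uap1l1* are wide, since HGFAC-KO mice spread more: the coefficient of variation on chow was 33.6% for *Tuba8* and 29.8% for *Uap1l1* in HGFAC-KO mice, and 18.7% and 12.8% in controls. For *Tuba8* a single mouse, KO chow replicate 1 at 24.6 CPM, set the sign, and the log2 fold change was -0.07 once it was left out.

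On HF/HS, 0 of the 5 genes passed, against 0.0148% of 13544 genes tested, which is 2 genes. The genotypes separated without overlap for 0 of 5, against 0.0812% of all genes. At an unadjusted p under 0.05 there were 2 of the 5, *Uap1l1* and *Tuba8*, beside 1306 of all genes, and under DESeq2 0 of the 5 and 55 of all genes passed.

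The HF/HS mean of *Uap1l1* was 4.17 ± 0.445 CPM over controls and 5.51 ± 1.35 CPM over HGFAC-KO mice (SD, n = 7 each), with 3 of 7 HGFAC-KO mice above every control. Its log2 fold change was 0.40 (95% interval 0.11 to 0.68, adjusted p = 0.436 from edgeR over all genes), and the two-sided exact permutation test over 3432 divisions gave p = 0.0134. That of *Tuba8* was 3.99 ± 0.439 CPM over controls and 5.75 ± 2.75 CPM over HGFAC-KO mice, with 4 of 7 HGFAC-KO mice above every control and 1 below. Its log2 fold change was 0.53 (95% interval 0.01 to 1.05, adjusted p = 0.516), the exact permutation p was 0.184, and without KO HF/HS replicate 2 the log2 fold change was 0.34. The coefficient of variation of *Tuba8* was 47.9% in HGFAC-KO mice and 11.0% in controls, and that of *Uap1l1* was 24.5% and 10.7%.

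*Snhg11* (log2 fold change 0.12, 95% interval -0.27 to 0.51), *Gpat3* (-0.07, -0.31 to 0.17) and *Idh2* (-0.03, -0.21 to 0.16) did not pass on HF/HS, with adjusted p from 0.870 to 0.947 in edgeR's test. With single mice left out, *Snhg11* ran from 0.02 to 0.22, *Gpat3* from -0.12 to -0.003 and *Idh2* from -0.08 to 0.05. *Gpat3* and *Snhg11*, which had the larger genotype differences on chow, were thus near 0 on HF/HS, and *Uap1l1* and *Tuba8* had theirs on HF/HS. The same group values chose the genes, so nothing is read from which diet held the larger difference. Whether the genotype effect differed between the diets was tested itself, over all 27 mice.

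**Figure D2:**
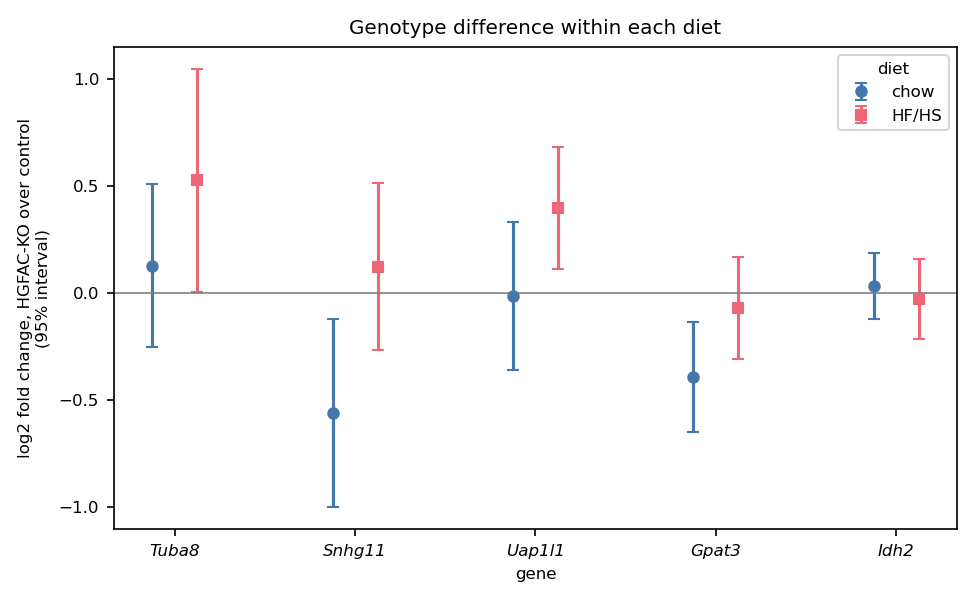
Log2 fold change of HGFAC-KO over control (y axis) for each of the 5 genes on chow (circles) and on HF/HS (squares), with 95% intervals from edgeR's fit. The intervals exclude 0 for *Snhg11* and *Gpat3* on chow (-0.56 and -0.39) and for *Uap1l1* and *Tuba8* on HF/HS (0.40 and 0.53), and none of the 5 genes passed after adjustment over all genes.

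The interaction of genotype and diet passed for 0 of the 5 genes, and for 0% of 13932 genes tested, with 506 genes at an unadjusted p under 0.05 and none past the threshold under DESeq2. For *Snhg11* the log2 fold change on HF/HS in HGFAC-KO mice minus that in controls was 0.69 (standard error 0.29, 95% interval 0.09 to 1.28, unadjusted p = 0.0247 and adjusted p = 0.984 from edgeR). The same difference was 0.42 for *Uap1l1* (95% interval -0.03 to 0.86), 0.40 for *Tuba8* (-0.25 to 1.06) and 0.33 for *Gpat3* (-0.01 to 0.67), each with an adjusted p of 0.984. For *Idh2* it was -0.06 (-0.30 to 0.19, adjusted p = 0.988). The value for *Tuba8* rested in part on single mice, at 0.21 without KO HF/HS replicate 2 and 0.60 without KO chow replicate 1. That for *Idh2*, near 0, was -0.11 without control chow replicate 2 and 0.02 without control HF/HS replicate 3. These differences are built from the diet differences that chose the genes, so nothing is read from their direction.

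To see whether relatives and pathway partners of the 5 genes moved with the diet, lists of such genes were compared in the same way, and these other genes were tested. Among all genes, 5.6% of 13525 passed as lower on HF/HS and 4.93% as higher in controls, and 2.73% of 13613 as lower and 3.17% as higher in HGFAC-KO mice. The median log2 fold change over all genes tested was 0.0036 in controls and 0.0037 in HGFAC-KO mice. The 5 genes were chosen for their falls in this contrast and their relatives were not, so the values are given side by side and nothing is read from the gap between them.

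For *Tuba8*, 2 of 9 other tubulin genes tested passed as lower in controls and 1 of 10 in HGFAC-KO mice, and none as higher, with medians of -0.14 and -0.10. *Tuba4a*, the alpha-tubulin with the highest level per length here (69.0 RPKM in controls on chow), fell in both genotypes, with log2 fold changes of -0.24 (adjusted p = 0.0460 from edgeR) and -0.25 (adjusted p = 0.0306). *Tuba1c* (45.1 RPKM), *Tuba1b* (4.30 RPKM) and *Tuba1a* (1.42 RPKM) did not pass in either, with values from -0.20 to 0.19. Against these, *Tuba8* was at 6.09 RPKM and had -1.79 and -1.39.

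For *Snhg11*, 0 of 12 other snoRNA host genes tested passed in either direction in either genotype, and their log2 fold changes ran from -0.21 to 0.18 in controls and between -0.31 and 0.16 in HGFAC-KO mice. *Snhg11* itself was at -2.58 and -1.89. On genotype, the 12 others had positive values on chow, from 0.06 to 0.62, where *Snhg11* was at -0.56. On HF/HS they ran from -0.06 to 0.35, and *Snhg11*, at 0.12, lay within that range. None of the 12 passed on either diet.

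For *Uap1l1*, the paralog *Uap1* was at 15.8 RPKM in controls on chow, above the 2.46 RPKM of *Uap1l1*, and did not pass on HF/HS (log2 fold change 0.0066 in controls and 0.04 in HGFAC-KO mice, adjusted p = 0.972 and 0.785 from edgeR). Of 13 other hexosamine genes tested, 2 passed as higher in controls, *Pgm3* (log2 fold change 0.20) and *Gne* (0.28), and 1 as lower in HGFAC-KO mice, *Amdhd2* (-0.26). *Pgm3* and *Amdhd2* act on N-acetylglucosamine phosphates, and *Gne* starts sialic acid synthesis from UDP-N-acetylglucosamine. These 3 were named after their values were seen.

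For *Gpat3*, the other acyltransferases of the same step did not pass in either genotype. *Gpat4*, also of the endoplasmic reticulum, was at 29.7 RPKM in controls on chow and had log2 fold changes of -0.03 and -0.04 on HF/HS (adjusted p = 0.778 and 0.782 from edgeR). *Gpam*, of the mitochondrial outer membrane, was at 22.5 RPKM and had 0.07 and 0.12 (adjusted p = 0.640 and 0.738). Both were thus higher per length than *Gpat3* (2.97 RPKM). Of 16 other glycerolipid genes tested, 1 passed as lower in both genotypes, *Mogat2*, an acyltransferase of monoacylglycerol, with -2.17 and -1.31 (adjusted p = 6.67e-04 and 0.0269). *Mogat2* was near the limit of these libraries, at 12 to 35 counts in controls on chow and 1 to 7 on HF/HS. In controls 2 more passed as higher, *Lpin1* (1.00), whose enzyme makes diacylglycerol, and *Gpd1* (0.28), whose enzyme makes glycerol-3-phosphate, and these were named after their values were seen.

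For *Idh2*, 0 of 20 other genes of the citric acid cycle passed in controls, and in HGFAC-KO mice 2 passed as lower, *Idh1* (log2 fold change -0.23, adjusted p = 0.0408 from edgeR) and *Mdh2* (-0.27, adjusted p = 0.00727). *Idh1*, the cytosolic NADPH-making form, was at 125 RPKM in controls on chow, above *Idh2*, and had -0.15 in controls (adjusted p = 0.0789). The subunits of the NAD-dependent enzyme, *Idh3a*, *Idh3b* and *Idh3g*, did not pass in either genotype and ran from -0.11 to 0.15. Among 9 other genes of NADPH supply, *Pgd*, of the pentose phosphate pathway, fell in both genotypes (-0.23 and -0.28, adjusted p = 0.0413 and 0.00114). In HGFAC-KO mice *Idh1* and *Aldh1l1* (-0.40) also fell, and *G6pdx* (0.43) rose. *Mdh2*, *Aldh1l1* and *G6pdx* were named after their values were seen. The cycle genes had medians of -0.04 in controls and -0.11 in HGFAC-KO mice, against -0.61 and -0.67 for *Idh2*.

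**Figure D3:**
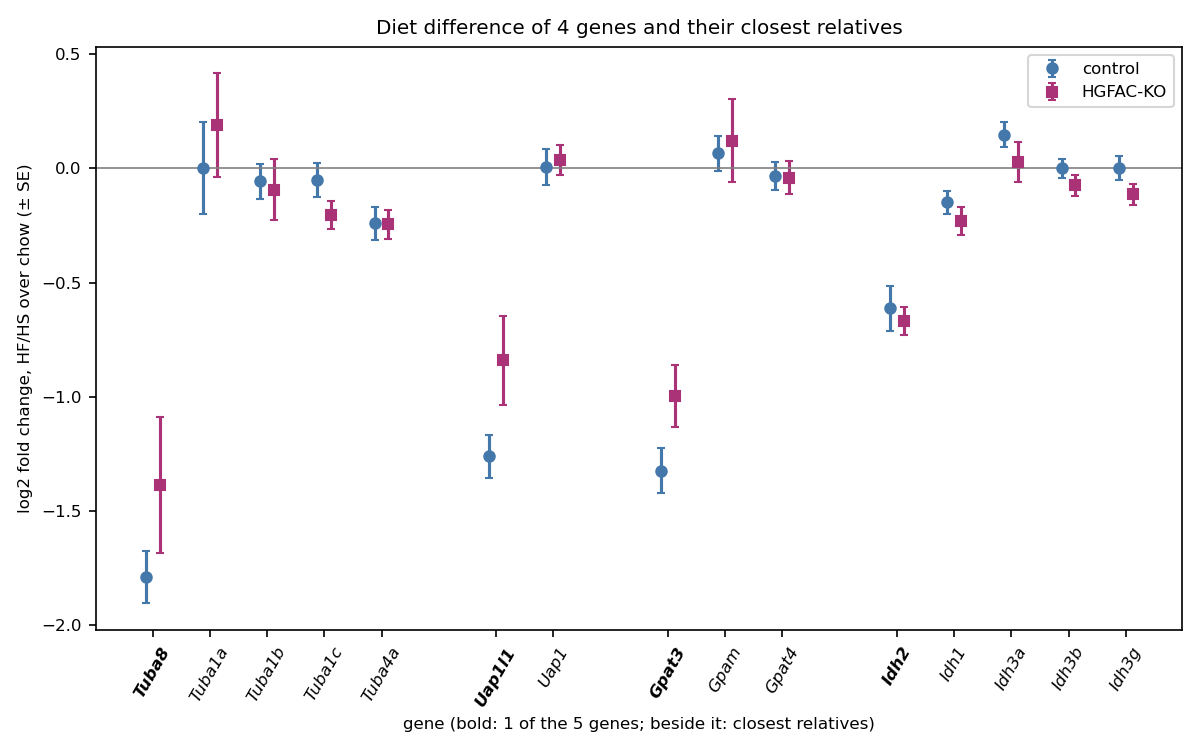
Log2 fold change of HF/HS over chow (y axis, with standard errors) in controls (circles) and HGFAC-KO mice (squares) for *Tuba8*, *Uap1l1*, *Gpat3* and *Idh2* (bold) and their closest relatives. The 4 chosen genes lie between -1.79 and -0.61, and the relatives lie between -0.25 and 0.19.

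The cytochrome P450 genes of the 2b, 2c and 3a families, which detoxify drugs and metabolize steroids in the liver, form another group lowered on HF/HS. Of 19 tested, 12 fell in controls and 10 in HGFAC-KO mice, with 1 higher in HGFAC-KO mice and medians of -1.42 and -1.30. *Snhg11* (-2.58 and -1.89) and *Tuba8* (-1.79 and -1.39) lay below these medians in both genotypes, and *Gpat3*, *Uap1l1* and *Idh2* above them. The 5 genes were chosen on this contrast, so nothing is read from their place beside these medians. The families are of near-identical genes whose reads the counting could have split. The correlation of each gene of the 5 with 17 of these genes, over the deviations of 27 mice from their group means, had a median of 0.29 for *Snhg11*, 0.08 for *Idh2*, -0.01 for *Gpat3*, -0.16 for *Tuba8* and -0.29 for *Uap1l1*. The single values ran from -0.26 to 0.53 for *Snhg11*, from -0.53 to 0.67 for *Idh2*, from -0.50 to 0.28 for *Gpat3*, from -0.67 to 0.36 for *Tuba8* and from -0.70 to 0.13 for *Uap1l1*.

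How the 5 genes varied from mouse to mouse within a group does not use the diet difference that chose them. Deviations of log2 CPM from the group mean were compared over all 27 mice, which share the normalization, and are given as a description. The highest Pearson correlations between members were 0.55 for *Tuba8* with *Gpat3* (Spearman 0.54), 0.50 for *Tuba8* with *Uap1l1* (Spearman 0.41) and 0.50 for *Uap1l1* with *Gpat3* (Spearman 0.53). Without the 2 mice farthest from the median of the first gene of the pair they were 0.55, 0.35 and 0.55. Over all mice the 4 pairs with *Snhg11* lay between -0.17 and 0.16, and those of *Idh2* with *Tuba8*, *Uap1l1* and *Gpat3* between 0.11 and 0.26, but these pool groups whose own values differed in sign.

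Single groups differed in this. For *Tuba8* with *Uap1l1* the correlation was -0.29 in controls on chow and -0.51 in controls on HF/HS, and 0.62 and 0.76 in HGFAC-KO mice on these diets. For *Tuba8* with *Gpat3* it was 0.84 in controls on chow, 0.82 in HGFAC-KO mice on chow, -0.03 in controls on HF/HS and 0.46 in HGFAC-KO mice on HF/HS. In controls on chow *Snhg11* had 0.82 with *Tuba8*, 0.75 with *Gpat3* and 0.65 with *Idh2*, where HGFAC-KO mice on chow had -0.32, -0.36 and -0.26. For *Idh2* in HGFAC-KO mice, the value with *Tuba8* was 0.98 on chow and -0.18 on HF/HS, and that with *Gpat3* was 0.79 and -0.66. These rest on 6 or 7 mice each, and the differences between groups were not tested. In single mice, KO HF/HS replicates 2 and 6 had the highest levels of *Tuba8* (10 and 8.78 CPM) and of *Uap1l1* (7.84 and 6.79 CPM) in their group, and replicate 6 also the highest *Gpat3* (4.82 CPM). KO chow replicate 1 was the highest of its group for *Tuba8* (24.6 CPM), *Gpat3* (9.62 CPM) and *Idh2* (139 CPM) and was low for *Snhg11* (11.2 CPM). Control chow replicate 2 was the highest of its group for *Tuba8*, *Snhg11*, *Gpat3* and *Idh2*. Its deviations were 0.40, 0.49, 0.37 and 0.32 log2 CPM, the largest of the group for each. The correlations among these genes in controls on chow thus rest in part on this mouse. Deviations of *Idh2* had a correlation of -0.48 with the log2 of the counts on named genes, and those of *Uap1l1* one of 0.41 with the share of counts on rows without a gene name. The part of these in the results was not tested.

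**Figure D4:**
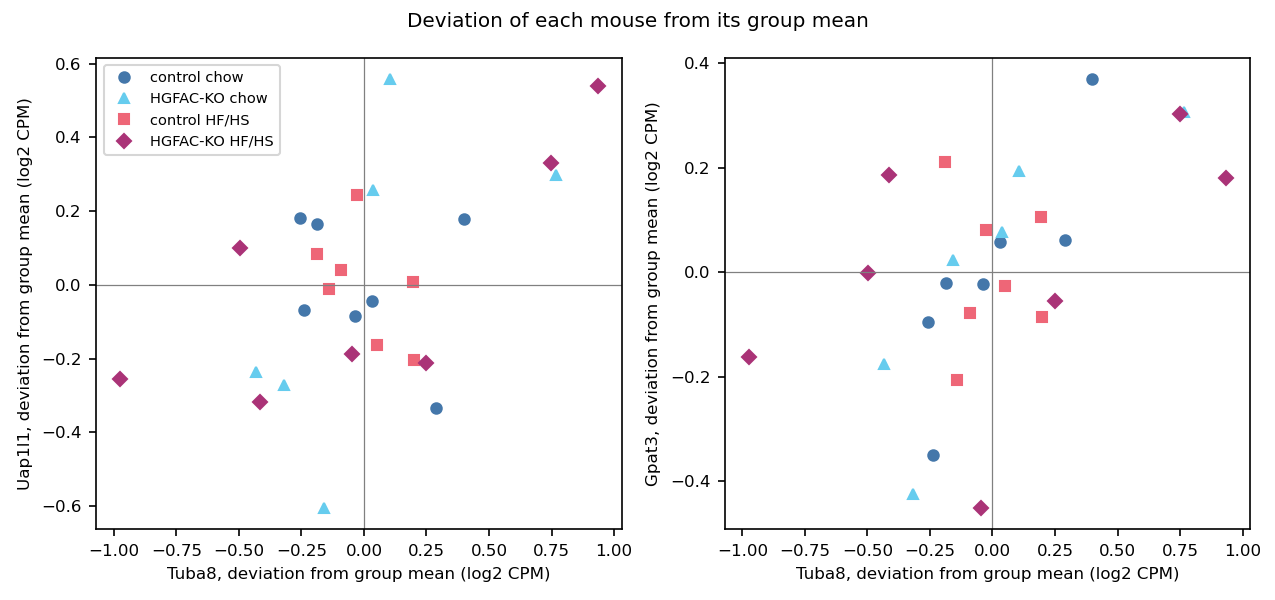
Deviation of each mouse from its group mean on the log2 CPM scale, for *Tuba8* (x axis) against *Uap1l1* (left) and *Gpat3* (right), with 1 point per mouse and a marker for each of the 4 groups. Over all mice the Pearson correlation was 0.50 for *Uap1l1* and 0.55 for *Gpat3*, and for *Uap1l1* it was positive in the HGFAC-KO groups (0.62 and 0.76) and negative in the control groups (-0.29 and -0.51).

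Of 11840 genes with a mean of at least 1 CPM, those whose deviations were most like *Tuba8* were *Comtd1* (Pearson 0.84), *Etnppl* and *Fkbp1a* (both 0.82). For *Snhg11* they were *2410131K14Rik* (0.81), *Lipe* (0.75) and *Itpk1* (0.75). For *Uap1l1* they were *Anxa5* (0.74), *Tspan31* (0.71) and *Pglyrp2* (0.71). For *Gpat3* they were *Slc12a5* (0.68), *Mis18a* (0.63) and *Dpp7* (0.62), and for *Idh2* they were *Bcl7c*, *Sh3glb2* (both 0.83) and *Tmem9* (0.82). These are the highest of 11840 values for each gene, and no gene appears for more than 1 of the 5. On diet, *Comtd1* (log2 fold change -0.62), *Etnppl* (-1.58), *Fkbp1a* (-0.14), *Lipe* (-0.55), *Anxa5* (-0.41) and *Dpp7* (-0.31) fell in controls, and of these 15 genes only *Tmem9* (-0.35) passed in HGFAC-KO mice.

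Markers of other cell types and of liver zones are given beside the diet differences of the 5 genes. On HF/HS, 0 of 7 Kupffer cell markers passed in controls and 3 of 7 as higher in HGFAC-KO mice, and in HGFAC-KO mice their summed level ran from 123 to 188 CPM on chow and from 159 to 284 CPM on HF/HS. Of 7 periportal genes, 4 passed as lower in controls and 2 in HGFAC-KO mice, with medians of -0.47 and -0.43, and their sum ran from 5563 to 8532 CPM on chow and from 4366 to 7142 CPM on HF/HS in controls. Of 8 pericentral genes, 1 passed as lower in both genotypes and 1 as higher in controls. Of 8 stellate cell, 8 endothelial cell and 5 cholangiocyte markers tested, 1 stellate cell marker passed as lower in controls and 1 endothelial marker as higher in HGFAC-KO mice. Of 7 hepatocyte markers, 1 passed as lower in both genotypes, and of the leukocyte markers 1 passed as higher in each. The 5 adipocyte markers summed to between 0.130 and 2.35 CPM, with *Lep* at 0 counts in all 27 mice and *Cfd* detected in every mouse, and the 5 skeletal muscle markers summed to at most 0.722 CPM. Of 12 core clock genes, 2 passed as higher in controls. The part of these cell types, zones and the clock in the diet differences of the 5 genes was not tested. Tubulins and *Snhg11* are also expressed in neurons, and the 6 neuron markers summed to between 4.74 and 9.31 CPM. *Syt1* (median 3.57 CPM), *Syp*, *Map2* and *Rbfox3* were detected in every mouse and did not pass on diet, *Snap25* was at 0 counts in all 27 mice and *Stmn2* in 16. The part of neuronal RNA in these differences was not tested.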

How the data were processed

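Liver RNA-Seq of 27 mice was analysed from 1 table of counts per gene that the authors deposited without normalization. The authors prepared stranded libraries from captured mRNA, aligned the paired-end reads to GRCm38 (mm10) with HISAT2 and counted them per gene with featureCounts (1.6.3 in the submitters' processing notes). Total counts per mouse ran from 36056177 to 57298657. P-values set a difference between groups against the spread between the mice. Of its 27179 rows, 3886 carry no gene name. They held 4.13% to 12.1% of the counts of a mouse and were not used in library sizes or tests. Rows of the 89 symbols found more than once were summed.

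Mice were grouped by their labels. Counts were tested with edgeR 4.0.16 in R 4.3.3, with TMM normalization, filterByExpr (minimum count 10), a robust quasi-likelihood fit, Benjamini-Hochberg adjustment over all genes tested and a threshold of 0.05. Genotypes were compared within each diet, diets within each genotype, and the interaction of genotype and diet over all mice. Exact permutation tests were two-sided, on log2 CPM with a prior count of 2. Fits were tested on simulated counts. Mice of 1 group always differed beyond sampling noise (chi-square per gene at least 17.7).

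The 5 genes and the gene lists were chosen with earlier results of these data known. Named genes are the 5 genes, *Hgfac*, their closest relatives by function, in each pathway list up to 3 other genes past the threshold in the same direction in both genotypes, and for each of the 5 the 3 genes most like it over deviations from group means. Others are marked where named. Exons, overlaps and lengths come from GENCODE, promoter windows from RefSeq. Alternatives were DESeq2 1.42.0, limma voom (3.58.1), upper-quartile normalization, no filter, a minimum of 10 counts in all libraries, 1 surrogate variable (sva 3.50.0), a block for the replicate number, a joint fit of the 27 mice, and fits without 1 mouse each.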

Additional observations from a re-analysis of the deposited data

Results flagged for a closer look

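Over the 5 genes and 4 groups, 20 sets of mice were searched for a single mouse far from the others of its group, and 2 held one. Such a search picks about 1 in 20 sets by chance. *Tuba8* in KO chow replicate 1 was at 24.6 CPM, while the other 5 HGFAC-KO mice on chow were between 10.7 and 15.5 CPM. *Idh2* in control chow replicate 2 was at 152 CPM, while the other 6 controls on chow were between 109 and 125 CPM. Both mice were on the chow side of the diet difference. With KO chow replicate 1 left out, *Tuba8* had a log2 fold change of HF/HS over chow of -1.19 in HGFAC-KO mice in place of -1.39. With control chow replicate 2 left out, *Idh2* had one of -0.56 in controls in place of -0.61.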

How the results depend on the processing

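None of the 5 genes passed on genotype, or in the difference between the diets, under any alternative that gave it an adjusted p. On chow DESeq2 gave none to *Tuba8*, *Snhg11*, *Uap1l1* and *Gpat3*, since its filter left 1993 of 13571 genes to adjust over. Over the alternatives no diet difference of theirs changed sign. Counts over all genes moved more. On genotype, DESeq2 called 13 genes on chow, in place of 1, and 55 on HF/HS, in place of 2. On HF/HS the fit of all 27 mice called 1, and leaving out single mice gave 2 to 11 (11 without KO HF/HS replicate 5, 5 without control HF/HS replicate 7). On diet, the 802 genes called in HGFAC-KO mice became 1401 with DESeq2 and 467 to 950 with single mice left out (467 without KO chow replicate 2). In controls the 1424 genes called became 774 with the replicate block. The mice with the same number in the labels are not a pair by any source, and their deviations correlated with a median between -0.04 and 0.13 over the 4 pairs of groups, so the replicate block is given here only. With it, the log2 fold change on chow was -0.40 for *Gpat3* and -0.66 for *Snhg11*. The cause of these shifts was not tested. For *Uap1l1* on diet in HGFAC-KO mice, the gene with overlapping groups, the log2 fold change ran from -0.95 to -0.71 over all alternatives. The fit of all mice was not run for the difference between the diets, which already uses them. On HF/HS the 4 less abundant genes had 95 to 468 counts a mouse.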
